A study of Mus musculus with 24 samples.

Results

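A set of 10 genes of bone marrow stroma, extracellular matrix and endothelium were followed across all 6 groups of mouse marrow samples: Sparc, Bgn, Dcn, Col1a1, Col1a2, Col3a1, Col4a1, Fn1, Cdh5 and Pecam1. They were chosen by name, as commonly used genes of these tissues, and they are 10 of the 19938 genes measured. These genes and the gene lists below were chosen with earlier results of these data known. Their counts beside the share of all genes are therefore a description and not an independent test. Each of the 10 genes was read by 1 probe set of an Affymetrix mouse gene array, 1 array for each of 24 samples. The first group was tumour-bearing bone marrow from 7 mice with the BCR/ABLp190 fusion oncogene and 1 inactive Pax5 allele (Sca1-BCR/ABLp190+Pax5+/-), called het leukaemias here. The second was tumour-bearing marrow from 2 Sca1-BCR/ABLp190 mice for which no Pax5 change was named, called both-copy leukaemias. The control of these 2 groups was B220+ B cells from the marrow of 5 WT mice. The other 3 groups were pro-B and pre-B cells, the 2 earliest committed B cell stages, taken before leukaemia: 3 samples of Sca1-BCR/ABLp190+Pax5+/- mice (het precursors), 3 of Sca1-BCR/ABLp190 mice (both-copy precursors) and 4 of WT mice (the design text counts 3 WT mice, the sample titles 4, and all 4 were used). The oncogene was driven by the Sca1 promoter, which is active in blood stem and progenitor cells. All animals lived in a conventional facility with exposure to common pathogens, and no age was given. The leukaemia samples were labelled as bone marrow, with no sort named, whereas the other groups were labelled as selected B-lineage cells.

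Marrow holds blood-forming cells within a scaffold of reticular stromal cells, bone-lining cells and blood vessels. Stromal cells make the fibres of type I and type III collagen and the small proteins that bind them, while endothelial cells and their neighbours lay down a thin basement membrane built on type IV collagen and laminin. B cell precursors grow in contact with this scaffold, held to it through integrins, which bind fibronectin and other matrix proteins.

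The genes were grouped by role. Sparc encodes a secreted protein that binds collagen and calcium and takes part in fibre assembly. Bgn encodes biglycan and Dcn decorin, small leucine-rich proteoglycans that coat collagen fibres. Col1a1 and Col1a2 encode the 2 chains of type I collagen, the main protein of bone matrix, and Col3a1 the chain of type III collagen. Col4a1 encodes a chain of type IV collagen of basement membranes, and Fn1 encodes fibronectin, a glycoprotein that links cells to matrix. Cdh5 encodes VE-cadherin, the adhesion molecule of endothelial cell junctions. Pecam1 encodes CD31, an adhesion molecule of endothelium that platelets and many leucocytes carry too. By the RefSeq annotation of mouse build GRCm38.p6, Sparc lies on chromosome 11 from 55394159 to 55420080, Bgn on chromosome X from 73483601 to 73495936 and Dcn on chromosome 10 from 97479500 to 97518163. Col1a1 lies on chromosome 11 from 94936224 to 94953042, Col1a2 on chromosome 6 from 4505618 to 4541543 and Col3a1 on chromosome 1 from 45311538 to 45349706. Fn1 lies on chromosome 1 from 71585473 to 71653280, Col4a1 on chromosome 8 from 11198423 to 11312889, Cdh5 on chromosome 8 from 104101613 to 104144504 and Pecam1 on chromosome 11 from 106654213 to 106715281.

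The RefSeq promoter table of GRCm38.p6 held 5 of the 10 genes (Sparc, Bgn, Col1a2, Col3a1 and Col4a1). The 250 bases before the start of 4 of them are printed 5′ to 3′ on the strand of the gene, 3 genes that rose in the leukaemias and Col3a1, a fibrillar collagen gene that did not pass the test there. Capitals mark matches, on either strand, to the TATA box motif TATAAA, the CCAAT box motif CCAAT or the GC box motif GGGCGG; a match on the other strand is printed as its reverse complement. The windows are chr11:55420081-55420330 on the minus strand for Sparc, chrX:73483351-73483600 on the plus strand for Bgn, chr6:4505368-4505617 on the plus strand for Col1a2 and chr1:45311288-45311537 on the plus strand for Col3a1.
Sparc: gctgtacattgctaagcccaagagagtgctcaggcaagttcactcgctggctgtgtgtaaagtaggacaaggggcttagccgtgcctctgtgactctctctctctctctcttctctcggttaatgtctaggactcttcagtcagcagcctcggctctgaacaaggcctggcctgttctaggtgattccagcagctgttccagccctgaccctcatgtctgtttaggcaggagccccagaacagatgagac
Bgn: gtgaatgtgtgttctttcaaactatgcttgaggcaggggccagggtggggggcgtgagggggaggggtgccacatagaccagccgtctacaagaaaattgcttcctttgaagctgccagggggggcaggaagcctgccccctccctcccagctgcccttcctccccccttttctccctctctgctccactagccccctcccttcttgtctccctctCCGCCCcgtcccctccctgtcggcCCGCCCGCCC
Col1a2: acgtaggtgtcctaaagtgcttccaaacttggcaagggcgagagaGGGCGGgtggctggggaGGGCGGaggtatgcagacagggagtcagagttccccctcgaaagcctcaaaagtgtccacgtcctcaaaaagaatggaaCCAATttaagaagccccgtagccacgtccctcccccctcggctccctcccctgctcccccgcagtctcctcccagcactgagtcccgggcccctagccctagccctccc
Col3a1: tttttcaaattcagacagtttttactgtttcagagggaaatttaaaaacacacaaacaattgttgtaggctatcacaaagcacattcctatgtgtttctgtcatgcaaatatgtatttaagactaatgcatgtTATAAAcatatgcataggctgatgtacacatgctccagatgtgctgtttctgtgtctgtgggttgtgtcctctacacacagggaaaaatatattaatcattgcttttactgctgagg
The Sparc window held none of the 3 motifs and had a GC content of 54.0%. The Bgn window had 64.4% GC and held GGGCGG 3 times on the other strand, beginning 34, 10 and 6 bases before the start, and the last 2 matches overlap. The Col1a2 window had 62.0% GC, with CCAAT beginning 109 bases and GGGCGG 205 and 188 bases before the start. The Col3a1 window had 35.2% GC, at percentile 5.00 of all promoters, no CG pair, and TATAAA beginning 117 bases before the start. The Col4a1 window, not printed, had 74.4% GC and 31 CG pairs. Of the 32851 promoters in the table, 12.4% held the TATA box motif, 33.8% the CCAAT box motif and 32.7% the GC box motif in the same window, and their median GC content was 52.4%. These matches describe the letters of the windows alone.

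Values are log2 units of a table in which the first quartile of all values was 5.50 and the third 8.73. Because each probe set has its own efficiency, levels were compared across arrays within a gene and not between genes. The B-lineage marker list, with 12 genes measured, had a mean log2 level of 11.93 to 12.16 on the B220+ arrays, 11.60 to 11.84 on the precursor arrays and 8.39 to 10.58 on the leukaemia arrays. The selected B cells therefore carried their defining markers at higher levels than the leukaemic marrow did. Xist, the transcript of the inactive X chromosome of females, lay at 12.25 or above on every B220+ and WT precursor array and at 6.49 or below on every both-copy precursor array. The het leukaemias were mixed for Xist, so sex and group overlap in part, and for both-copy against WT precursors they cannot be told apart. In bulk RNA of this kind, more cells of a type and more RNA per cell cannot be told apart.

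**Figure D1:**
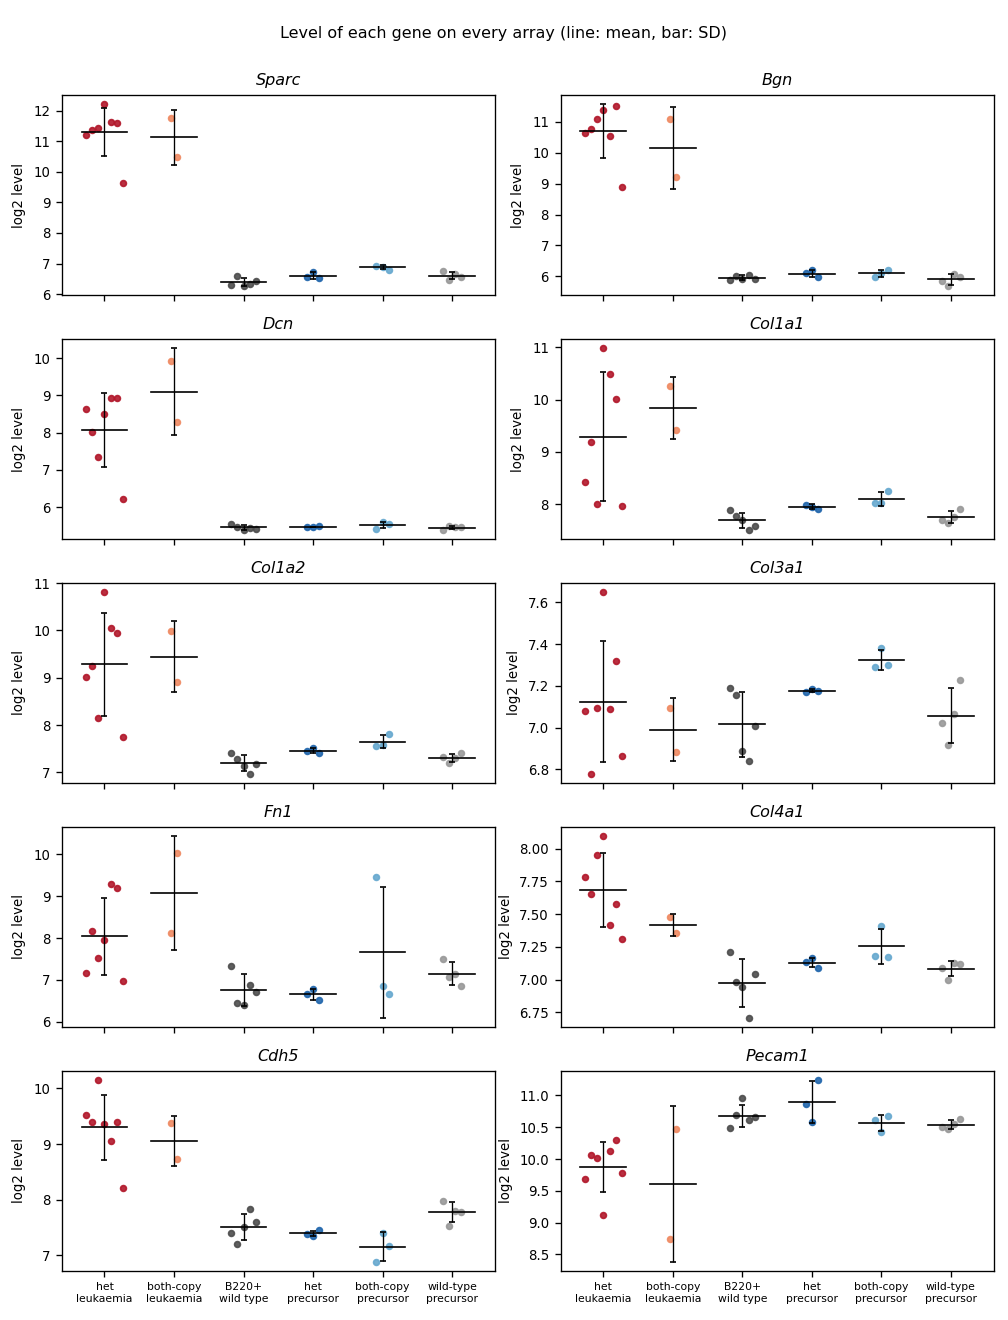
Log2 level of each of the 10 genes (1 panel per gene, y axis in log2 units, scaled per panel) on each of the 24 arrays (points), by group on the x axis, with a line at the group mean and a bar of 1 SD. Sparc, Bgn, Dcn and Cdh5 sat higher on all 9 leukaemia arrays than on all 15 others, Pecam1 sat lower on the het leukaemia arrays than on the B220+ arrays, and Col3a1 overlapped between leukaemias and B220+ cells.

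In het leukaemias against B220+ cells, 8 of the 10 genes rose, Pecam1 fell and Col3a1 did not pass the test (limma, adjusted p under 0.05 over 19938 genes). Among all genes, 31.8% were called, 12.9% as higher and 18.9% as lower. The median log2 change of the 10 genes was 1.70, and that of all genes was -0.06. For 8 of the 10 genes the arrays of the groups did not overlap, which held for 20.1% of all genes.

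Sparc had the largest difference of the 10. In B220+ cells it lay at 6.31, 6.58, 6.26, 6.34 and 6.44. In the 7 het leukaemias the lowest value was 9.65, the median 11.45 and the highest 12.21. Every leukaemia was thus far above the highest B220+ array. The difference was 4.92 ± 0.36 (SE), a 30.2-fold higher level, with an adjusted p of 1.15e-06 (limma). The both-copy leukaemias stood at 11.77 and 10.50, inside the range of the het leukaemias, and their difference from the same B220+ cells was 4.75 ± 0.51 (adjusted p = 6.00e-05).

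The proteoglycan genes followed. Bgn lay at 5.89, 6.01, 5.91, 6.06 and 5.93 in B220+ cells, and at a lowest of 8.89, a median of 10.77 and a highest of 11.50 in het leukaemias. The difference was 4.73 ± 0.41, or 26.6-fold, with an adjusted p of 5.51e-06. Both-copy leukaemias had 11.09 and 9.22 (4.20 ± 0.59, adjusted p = 0.000374). Every leukaemia array was above every B220+ array for Bgn, with a wide gap. Dcn lay between 5.39 and 5.56 on the 5 B220+ arrays (5.56, 5.46, 5.39, 5.44 and 5.41), near the lower quartile of the table. In het leukaemias it reached a lowest of 6.22, a median of 8.49 and a highest of 8.92, a difference of 2.62 ± 0.44 (6.16-fold, adjusted p = 0.000699). The B220+ levels of Sparc, Bgn and Dcn were not shown to lie above background, since the table has no detection calls. Their folds are therefore ratios of table values and could understate the difference. The both-copy leukaemias, at 9.93 and 8.27, held the highest Dcn value of the series, and their difference from B220+ cells was 3.65 ± 0.63 (adjusted p = 0.0015).

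The type I collagen genes rose with a wide spread between leukaemias. Col1a1 was 7.88, 7.77, 7.71, 7.51 and 7.58 in B220+ cells against a lowest of 7.97, a median of 9.19 and a highest of 10.98 in het leukaemias. Replicates 3 and 7 sat just above the B220+ range, at 8.01 and 7.97, and replicates 4, 5 and 6 at 10.01 or above. The difference was 1.60 ± 0.50 (3.04-fold, adjusted p = 0.0285). Its call was lost without het leukaemia replicate 6 (adjusted p = 0.0502), without any of B220+ replicates 2 to 5 (0.0553 to 0.0586), and with the Xist level as a covariate (0.0957). Col1a2 was 7.41, 7.28, 7.13, 6.97 and 7.18 in B220+ cells, and had a lowest of 7.75, a median of 9.26 and a highest of 10.81 in het leukaemias. Its difference was 2.09 ± 0.46 (4.26-fold, adjusted p = 0.00396). Het leukaemia replicates 4, 5 and 6 were again the 3 highest. In both-copy leukaemias Col1a1 stood at 10.26 and 9.43 and Col1a2 at 9.98 and 8.91, differences of 2.16 ± 0.72 (adjusted p = 0.0497) and 2.26 ± 0.65 (adjusted p = 0.0271) from B220+ cells. With only 2 leukaemias these calls rested on single arrays. The Col1a1 call was lost on leaving out any 1 of the 7 arrays (adjusted p from 0.0687 to 0.287), and the Col1a2 call without both-copy leukaemia replicate 1 (1.72, adjusted p = 0.237). Both calls were also lost with array weights (adjusted p = 0.133 and 0.0778) and with Xist as a covariate (0.0974 and 0.0627).

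Col3a1 did not move with the type I genes. It was 7.19, 7.16, 6.89, 6.84 and 7.01 in B220+ cells, and its lowest, median and highest values in het leukaemias were 6.78, 7.09 and 7.65. The ranges overlapped, and replicates 4 (7.65) and 6 (7.32) alone lay above all B220+ arrays. The difference was 0.11 ± 0.13 (adjusted p = 0.55) in het leukaemias and -0.03 ± 0.19 (adjusted p = 0.934) in both-copy leukaemias, whose arrays read 7.10 and 6.88. These values were given by 1 probe set, and no second probe set of the gene was there to compare.

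The adhesive and basement membrane genes rose by less. Fn1 was 7.34, 6.45, 6.39, 6.89 and 6.71 in B220+ cells, with a lowest of 6.98, a median of 7.96 and a highest of 9.30 in het leukaemias. B220+ replicate 1 overlapped the lowest leukaemias. The difference was 1.29 ± 0.45 (2.44-fold, adjusted p = 0.0456), and it lost its call without het leukaemia replicate 2, 4, 5 or 6, without B220+ replicate 2, 3, 4 or 5 (changes from 1.08 to 1.32), and with WT precursors as the control (0.89). In both-copy leukaemias Fn1 read 8.11 and 10.04, a difference of 2.32 ± 0.65 (adjusted p = 0.0224) that fell to 1.36 (adjusted p = 0.237) without replicate 2. Col4a1 was 7.21, 6.98, 6.94, 6.71 and 7.04 in B220+ cells, against a lowest of 7.31, a median of 7.65 and a highest of 8.10 in het leukaemias. This was a small difference with narrow spread, 0.71 ± 0.13 (1.63-fold, adjusted p = 0.00143). Both-copy leukaemias, at 7.48 and 7.36, were above all B220+ arrays, but the difference of 0.44 ± 0.19 did not pass (adjusted p = 0.117).

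The 2 endothelial junction genes parted. Cdh5 was 7.40, 7.20, 7.52, 7.83 and 7.61 in B220+ cells, and had a lowest of 8.22, a median of 9.39 and a highest of 10.16 in het leukaemias, a difference of 1.79 ± 0.26 (3.46-fold, adjusted p = 0.000233). Both-copy leukaemias had 9.38 and 8.74 (1.55 ± 0.37, adjusted p = 0.0106), a call that was lost without replicate 1 (1.23, adjusted p = 0.133). Pecam1 went the other way. It was 10.49, 10.69, 10.95, 10.61 and 10.67 in B220+ cells, and its lowest, median and highest values in het leukaemias were 9.13, 10.02 and 10.30. All 7 leukaemias were below all 5 B220+ arrays. The difference was -0.81 ± 0.26 (1.75-fold lower, adjusted p = 0.0323), but the call was lost without het leukaemia replicate 1, 4 or 7, without B220+ replicate 2, 3, 4 or 5, and with Xist as a covariate (-0.48, adjusted p = 0.183). The changes without 1 array ran from -0.88 to -0.69. The both-copy leukaemias lay far apart, at 8.74 and 10.47, and their difference of -1.07 ± 0.37 did not pass (adjusted p = 0.0584). Without replicate 2 it was -1.94 (adjusted p = 0.00119). Wherever 1 of the 2 both-copy leukaemias is left out, the group is a single array whose spread is taken from the other groups, so such a p holds only under that assumption.

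Both-copy leukaemias against B220+ cells had 7 of the 10 genes higher and 0 lower, where 21.4% of all genes were called, 9.48% as higher and 11.9% as lower. The 7 were Sparc, Bgn, Dcn, Col1a1, Col1a2, Fn1 and Cdh5, and the median log2 change of the 10 was 2.21 beside -0.07 for all genes. For 9 of the 10, all but Col3a1, the arrays of the groups did not overlap, which held for 43.4% of all genes. Both leukaemia groups were set against the same 5 B220+ arrays, so the 2 comparisons are not independent.

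**Figure D2:**
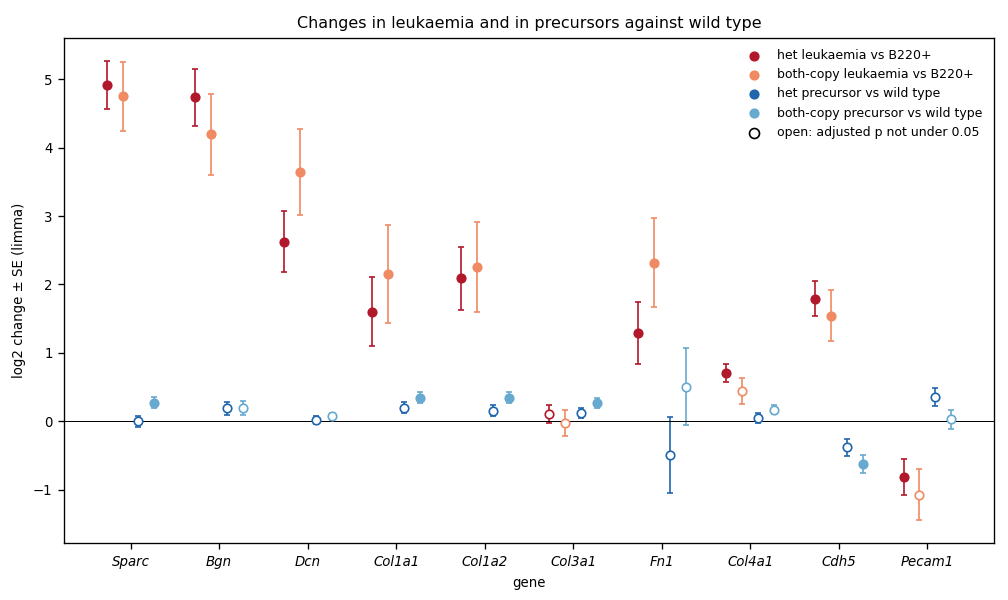
Log2 change (y axis, limma estimate, points, with bars of 1 SE) of each of the 10 genes (x axis) in both leukaemia groups against B220+ cells and both oncogene-bearing precursor groups against WT precursors, with open points where the adjusted p was not under 0.05. Sparc and Bgn lie above 4 in both leukaemia comparisons, and every precursor point lies within 1 log2 unit of 0.

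Whether the leukaemias differed by Pax5 status was asked by comparing them directly. None of the 10 genes passed (0 of 10, beside 1.87% of all genes, and 0 at an unadjusted p under 0.05, limma). The 2 largest differences were lower in het leukaemias, Fn1 at -1.03 ± 0.62 (adjusted p = 0.522) and Dcn at -1.02 ± 0.61 (adjusted p = 0.517). Sparc differed by 0.17 ± 0.49 and Bgn by 0.54 ± 0.57. With 2 both-copy leukaemias, standard errors of this size leave differences of about 1 log2 unit undetectable, and they do not show that the groups were alike. Without both-copy leukaemia replicate 2 the Pecam1 difference was 1.13 and passed, but that group was then 1 array with no spread of its own, and the spread came from the other groups.

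The same genes were then read in the precursor cells. In WT precursors Sparc was 6.74, 6.47, 6.65 and 6.54, Bgn 5.86, 5.68, 6.09 and 5.99, and Dcn 5.38, 5.48, 5.47 and 5.46. In het precursors Sparc was 6.56, 6.72 and 6.53, Bgn 6.09, 6.20 and 5.98, and Dcn 5.46, 5.47 and 5.48. All 3 genes therefore stood at the low level of the B220+ cells in these groups. Het precursors against WT precursors gave 0 of 10 genes called, where 4.17% of all genes were, and 3 (Col1a1, Cdh5 and Pecam1) had an unadjusted p under 0.05. The largest of these was Cdh5, which read 7.38, 7.35 and 7.45 in het precursors and 7.98, 7.54, 7.80 and 7.78 in WT precursors, a difference of -0.38 ± 0.13 (adjusted p = 0.118). B220+ cells against WT precursors gave 0 of 10 called (8.84% of all genes, and 0 of 10 at an unadjusted p under 0.05). This comparison took its spread from all arrays, leukaemias included. Its standard errors were 0.33 for Sparc, 0.38 for Bgn and 0.41 for Dcn. The SDs of these genes were 0.13, 0.07 and 0.07 in B220+ cells. In WT precursors the SDs were 0.12, 0.18 and 0.04. Small shifts could therefore have gone uncalled, and B220+ cells and WT precursors were not shown to be alike.

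Both-copy precursors against WT precursors gave small differences that passed the test in 5 genes, where 27.1% of all genes were called, 11.6% as higher and 15.5% as lower. For 6 of 10 genes the arrays did not overlap, beside 42.2% of all genes. Sparc read 6.93, 6.88 and 6.80 in both-copy precursors, each above every WT precursor, a rise of 0.27 ± 0.08 (adjusted p = 0.0336). Col1a1, at 8.02, 8.02 and 8.25 against 7.70, 7.64, 7.75 and 7.91, rose by 0.34 ± 0.08 (adjusted p = 0.0156). Col1a2, at 7.55, 7.59 and 7.81 against 7.32, 7.19, 7.30 and 7.41, rose by 0.35 ± 0.08 (adjusted p = 0.0131). Col3a1, at 7.29, 7.38 and 7.30 against 7.02, 6.91, 7.06 and 7.23, rose by 0.27 ± 0.07 (adjusted p = 0.0255), its only call among the 12 comparisons as fitted. Cdh5, at 6.89, 7.41 and 7.16, fell by 0.62 ± 0.13 (adjusted p = 0.0103). These shifts were under 1 log2 unit, and each call depended on the fit. With all 24 arrays in 1 fit the changes were the same and only the estimated spread differed, and none of the 5 passed (adjusted p from 0.126 to 0.685). With Xist as a covariate the changes were 0.15 for Sparc, 0.28 for Col1a1 and Col1a2, 0.26 for Col3a1 and -0.53 for Cdh5, and none passed. Xist separates these groups completely, so the covariate largely repeats the group there. Sparc also lost its call after quantile normalization, after median centring and with array weights (0.22 to 0.24), and Cdh5 after cyclic loess (-0.46). The Sparc call was lost on leaving out any array of the comparison other than WT precursor replicate 1 (adjusted p up to 0.0833). The Col1a1 call was lost without both-copy precursor replicate 3 (0.0594), and the Col3a1 call without both-copy precursor replicate 2 or 3 or WT precursor replicate 1, 2 or 3 (up to 0.0791). Het against both-copy precursors gave 0 of 10 called, where 0.0251% of all genes were, and 3 of 10 had an unadjusted p under 0.05.

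Fn1 had a single high array among the precursors. It read 9.45, 6.86 and 6.66 in both-copy precursors, 6.67, 6.78 and 6.52 in het precursors and 7.51, 7.07, 7.15 and 6.86 in WT precursors. Both-copy precursor replicate 1 was thus as high as the highest het leukaemias. The mean of the neutrophil and granulocyte precursor list (15 of 15 genes measured) was also highest on that array, at 10.42 against 7.41 and 7.10 on the other 2. Within the B220+ cells the array with the highest Fn1, replicate 1, likewise had the highest neutrophil list mean, 9.60 against 6.86 to 8.36. The part of neutrophil-lineage RNA in the Fn1 level was not tested. The both-copy leukaemias, at 11.87 and 11.06, exceeded every het leukaemia (6.85 to 9.27) in this list. Their Fn1 levels did not both do so. Replicate 1, at 8.11, lay inside the het Fn1 range of 6.98 to 9.30, and replicate 2 read 10.04.

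Leukaemic marrow was also set against precursors of the same genotype, in 1 fit over all 24 arrays. In the het groups 8 of the 10 genes rose and Pecam1 fell, where 44.7% of all genes were called, 16.4% as higher and 28.4% as lower. Sparc rose by 4.70 (adjusted p = 6.81e-09), Bgn by 4.60, Dcn by 2.61, Cdh5 by 1.91 and Col1a2 by 1.82. Col1a1 rose by 1.34 (adjusted p = 0.0282), Fn1 by 1.39 (adjusted p = 0.0468) and Col4a1 by 0.55 (adjusted p = 0.00216). Pecam1 fell by 1.02 (adjusted p = 0.00389) and Col3a1 differed by -0.05. The Col1a1 call was lost without any of the 3 het precursors, and the Fn1 call without any of them or without het leukaemia replicate 2, 4, 5 or 6, with changes of 1.18 to 1.45. In the both-copy groups 6 genes rose and Pecam1 fell, where 45.7% of all genes were called, 18.1% as higher and 27.6% as lower. Sparc rose by 4.26, Bgn by 4.06, Dcn by 3.58, Cdh5 by 1.90, Col1a2 by 1.80 (adjusted p = 0.016) and Col1a1 by 1.75 (adjusted p = 0.0301). The Col1a1 call was lost on leaving out any of the 5 arrays but both-copy leukaemia replicate 2, and the Col1a2 call without both-copy leukaemia replicate 1. With array weights 3 of the 7 calls were lost, those of Col1a1 (adjusted p = 0.11), Col1a2 (0.0687) and Pecam1 (0.102), with changes of 1.76, 1.81 and -0.93. Col1a1 also lost its call after quantile normalization (1.45) and cyclic loess (1.60), and Pecam1 in a fit of the arrays compared alone (adjusted p = 0.236). Pecam1 fell by 0.96 (adjusted p = 0.0289), a difference that was -0.10 (adjusted p = 0.826) without both-copy leukaemia replicate 1 and -1.83 without replicate 2, and that did not pass without both-copy precursor replicate 1 or 3. Fn1 differed by 1.42 (adjusted p = 0.116), and passed at 2.32 (adjusted p = 0.00799) without the high both-copy precursor replicate 1 and at 2.39 without both-copy leukaemia replicate 1. Col4a1 (0.16) and Col3a1 (-0.33, adjusted p = 0.12) did not pass.

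The order of the 6 groups can be read gene by gene. For Sparc, Bgn and Dcn the leukaemias were the 2 highest groups, their arrays overlapped each other, and a gap of 2.56 or more log2 units between group means separated them from the next group. Sparc had group means of 11.30 ± 0.80 (SD, n = 7) in het leukaemias, 11.14 ± 0.90 (n = 2) in both-copy leukaemias, 6.87 ± 0.07 (n = 3) in both-copy precursors, 6.60 ± 0.11 (n = 3) in het precursors, 6.60 ± 0.12 (n = 4) in WT precursors and 6.38 ± 0.13 (n = 5) in B220+ cells. For Cdh5 the gap to the next group, WT precursors, was 1.28. For Col1a1, Col1a2, Fn1 and Col4a1 the lowest leukaemias overlapped the next group, so the order at that step lay within the spread. Col3a1 ran from 7.32 ± 0.05 in both-copy precursors to 6.99 ± 0.15 in both-copy leukaemias, with leukaemias and precursors intermixed. Pecam1 was highest in het precursors (10.90 ± 0.34), followed by the other 3 selected B cell groups with overlapping arrays, and lowest in both-copy leukaemias (9.61 ± 1.22).

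Whether the oncogene-bearing groups differed from WT cells by more at the leukaemia stage than at the precursor stage was tested as a difference of differences. In the het groups 6 of 10 genes passed upward and Pecam1 downward, where 30.2% of all genes were called, 12.4% as higher and 17.8% as lower. The added change was 4.91 ± 0.47 for Sparc, 4.55 ± 0.55 for Bgn, 2.60 ± 0.58 for Dcn, 2.17 ± 0.36 for Cdh5, 1.93 ± 0.60 for Col1a2 (adjusted p = 0.0211), 0.66 ± 0.18 for Col4a1 (adjusted p = 0.0099) and -1.16 ± 0.36 for Pecam1 (adjusted p = 0.0207). Without het precursor replicate 3 the Pecam1 value was -0.99 and did not pass. In the both-copy groups 5 passed upward and Pecam1 downward, where 37.4% of all genes were called, 15.1% as higher and 22.3% as lower. The values were 4.48 for Sparc, 4.01 for Bgn, 3.58 for Dcn, 2.17 for Cdh5, 1.91 for Col1a2 (adjusted p = 0.0408) and -1.10 for Pecam1 (adjusted p = 0.0484). Col1a2 lost this call without any 1 array other than both-copy leukaemia replicate 2 and B220+ replicate 1, and without both-copy leukaemia replicate 1 it was 1.38. Pecam1 lost it without any array but both-copy leukaemia replicate 2, and it was -0.24 (adjusted p = 0.627) without both-copy leukaemia replicate 1. When the stage differences of het and both-copy groups were compared, none of the 10 genes passed (0 of 10, 0.692% of all genes, 0 of 10 at an unadjusted p under 0.05). Standard errors were 0.56 for Sparc, 0.69 for Dcn (difference -0.97) and 0.91 for Fn1. The stage differences were therefore not shown to be alike. The stages were different cell selections, so stage and selection cannot be told apart.

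**Figure D3:**
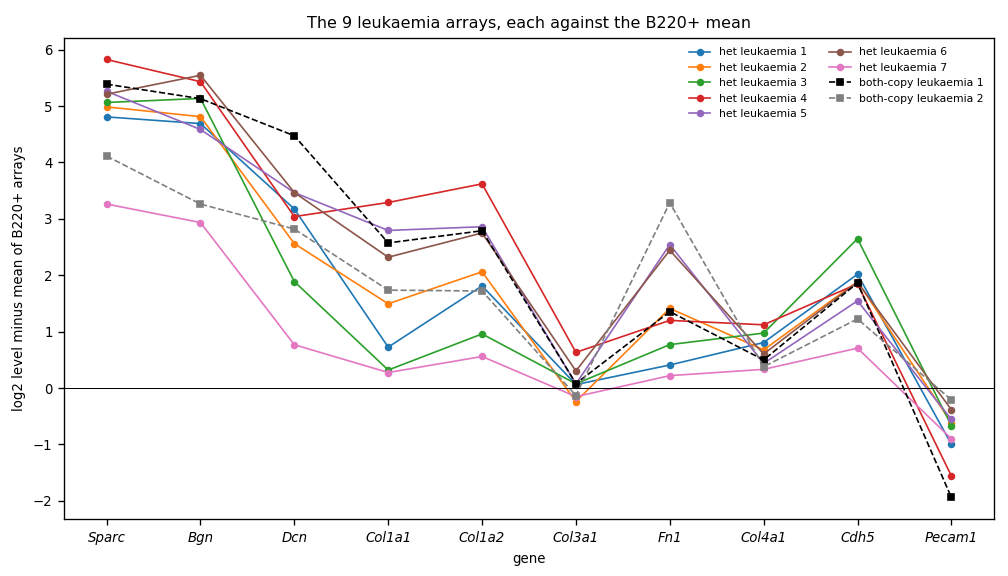
Log2 level of the 10 genes (x axis) on each of the 9 leukaemia arrays (lines, 1 per array), minus the mean of that gene over the 5 B220+ arrays (y axis, log2 units). Het leukaemia 7 is the lowest het array for 8 of the 10 genes, and still lies above 2 log2 units for Sparc and Bgn.

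The het leukaemias differed among themselves, and 1 array stood low in most genes. Het leukaemia replicate 7 held the lowest het value for 8 of the 10 genes, while the lowest Col3a1 value was on replicate 2 and the lowest Pecam1 value on replicate 4. Its Sparc level of 9.65 was followed by 11.19 on the next lowest array, and its Bgn level of 8.89 by 10.54. The mean level of the 10 genes was 7.96 on that array and 8.88 to 9.61 on the other 6, against 7.11 to 7.27 in B220+ cells. Replicate 7 was also lowest of the 7 in the mean levels of the endothelial (6.88), niche stroma (6.27), macrophage (7.68) and megakaryocyte (7.41) marker lists, and its Pax5 level was the highest of the 7, at 12.06 against 8.37 to 10.95. The part of these cell types in the low values was not tested. Without replicate 7 the difference from B220+ cells was 5.19 for Sparc and 5.03 for Bgn.

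Across the 7 het leukaemias, 38 of the 45 pairs among the 10 genes had a positive Pearson correlation, with a median r of 0.56 and a range from -0.57 to 0.967. These samples were labelled as bone marrow with no sort named. Genes may move together through normalization or cell composition, so the values are a description. Col1a1 and Col1a2, the partner chains of 1 protein, gave r = 0.967 (exact permutation p = 0.000397, 0.0179 after Benjamini-Hochberg adjustment over 45 pairs) and Spearman's rho of 1. Without replicates 4 and 5, the 2 farthest from the median of Col1a1, r was 0.940. No other pair passed the adjustment. Sparc and Bgn gave r = 0.927 (exact permutation, adjusted p = 0.179) and rho 0.571, and r was 0.326 without replicates 4 and 7, so that relation rested on those arrays. The median over pairs was 0.353 after leaving out the 2 farthest arrays of each. Against Pax5, none of 10 relations passed, and r ranged from -0.69 for Dcn (exact permutation p = 0.0907, adjusted 0.816) to 0.0021.

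The 10 genes were then set within wider lists of their pathways in het leukaemias against B220+ cells, beside 12.9% of all genes higher and 18.9% lower. Of 21 small leucine-rich proteoglycans and matrix partner genes measured, 10 rose and 1 fell (median log2 change 0.59). Postn, encoding periostin, rose by 2.91 ± 0.46, Sparcl1, a relative of Sparc, by 1.47 ± 0.24, and Thbs1, encoding the platelet and matrix protein thrombospondin 1, by 4.01 ± 0.69. Of 16 enzymes and chaperones that make collagen, 11 rose and 0 fell (median 0.71). P4hb, a subunit of the enzyme that hydroxylates prolines of collagen, rose by 0.94 ± 0.08, Crtap by 1.30 ± 0.17 and P3h1 by 0.38 ± 0.05, the last 2 acting together in prolyl 3-hydroxylation. P4hb also encodes a general folding enzyme of the endoplasmic reticulum.

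The further collagen genes were divided. Of 11 fibrillar and associated collagens outside the 10 genes, 4 rose, 2 fell and 5 did not pass (median 0.14). Col12a1 rose by 1.24 ± 0.22 and Col6a3 by 0.80 ± 0.20, both encoding collagens that lie along fibres, while Col5a3, a minor fibrillar chain, fell by 0.84 ± 0.08 (adjusted p = 6.76e-06). Of 13 basement membrane genes 7 rose and 0 fell (median 0.53). The laminin gene Lamb2 rose by 0.87, the perlecan gene Hspg2 by 0.82, and Col4a2, the partner chain of Col4a1, by 0.53 ± 0.10, near the 0.71 of Col4a1.

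Genes that cut or sense matrix moved as well. Of 17 matrix proteases and their inhibitors 11 rose and 1 fell (median 1.22). Collagenase 3 (Mmp13) rose by 3.85 ± 0.43, the inhibitor Timp3 by 3.83 ± 0.52 and the membrane-bound protease Mmp14 by 2.39 ± 0.38. Of 18 matrix receptors 7 rose and 2 fell (median 0.32), among them the integrin genes Itgb1 (1.50) and Itga5 (1.88), whose products form a fibronectin receptor. Sdc1, encoding the surface proteoglycan syndecan-1, fell by 1.53. Of 14 genes of the TGF-beta pathway 3 rose and 5 fell (median -0.03), with Tgfbr3, a co-receptor, up by 2.09. The receptor gene Tgfbr2 fell by 1.02 and the pathway repressor gene Skil fell by 1.29.

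**Figure D4:**
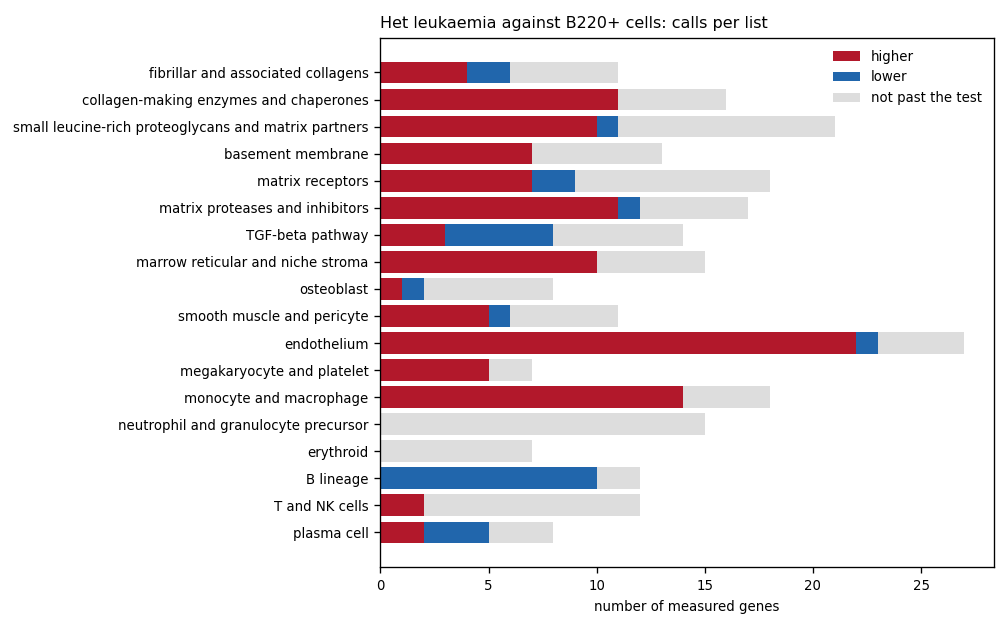
Number of measured genes of each list (x axis, stacked bars from 0) that were higher, lower or not past the test in het leukaemias against B220+ cells (limma, adjusted p under 0.05). The endothelium list has 22 higher of 27, the B lineage list 10 lower of 12, and the neutrophil and erythroid lists 0 in either direction.

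Markers of the cell types that could carry these genes were read in the same comparison. Of 27 endothelial genes 22 rose and 1 fell (median 1.19). Emcn, a surface glycoprotein of sinusoidal and venous endothelium, rose by 3.26 ± 0.39 and Ramp2, a co-receptor for adrenomedullin, by 0.74 ± 0.10. Icam2, an adhesion molecule of endothelium that lymphocytes also carry, fell by 1.76 ± 0.22, the direction of Pecam1. Of 15 genes of marrow reticular and niche stroma 10 rose and 0 fell (median 1.39): the growth factor receptor gene Pdgfrb by 2.44 ± 0.22, the leptin receptor gene Lepr by 2.20 ± 0.47 and the stem cell factor gene Kitl by 2.24 ± 0.51. Of 11 smooth muscle and pericyte genes 5 rose and 1 fell (median 0.44), where Notch3 rose by 0.78, Mcam rose by 0.59 and Cnn1 fell by 0.43. Of 8 osteoblast genes measured 1 rose and 1 fell (median 0.01). Ibsp, encoding bone sialoprotein, rose by 3.83 ± 0.58, and Col13a1 fell by 0.21 ± 0.07.

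Other cell types moved in the same arrays. Of 18 monocyte and macrophage genes 14 rose and 0 fell (median 2.40), including Csf1r by 3.75 ± 0.41, Mrc1 by 4.16 ± 0.56 and Vcam1, which stromal and endothelial cells also express, by 4.42 ± 0.61. Of 7 megakaryocyte and platelet genes measured 5 rose (median 1.84), with the platelet chemokine genes Ppbp at 4.66 ± 0.56 and Pf4 at 3.44 ± 0.66, and Gp9 at 2.78 ± 0.66. Of 12 B-lineage genes 10 fell and 0 rose (median -2.12), where Ms4a1, encoding CD20, fell by 5.43, Cd79b fell by 1.41 and Cd22 fell by 1.87. None of 15 neutrophil genes passed in limma (1 at an unadjusted p under 0.05), Prtn3 being nearest at 0.72 ± 0.32 (adjusted p = 0.104). None of 7 erythroid genes passed either (0 unadjusted), with Rhag at 2.14 ± 1.06 (adjusted p = 0.139). Of 12 T and NK cell genes 2 rose (Cd4 by 1.80 and Cd3g by 2.16). Of 8 plasma cell genes 2 rose and 3 fell, where Jchain rose by 5.06, Irf4 fell by 2.73 and Sdc1 fell by 1.53. The part of each cell type in the levels of the 10 genes was not tested.

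The mean levels of 4 of the cell type lists on each array showed the same split of samples. The niche stroma list ran from 6.27 to 7.81 in het leukaemias, stood at 8.48 and 6.62 in both-copy leukaemias, and lay between 5.69 and 5.84 on all other arrays. The endothelial list ran from 6.88 to 8.09 in het leukaemias, at 7.85 and 7.44 in both-copy leukaemias, and from 6.43 to 6.75 elsewhere. The macrophage list ran from 7.68 to 9.77 and stood at 9.17 and 8.01, against 6.45 to 6.90 elsewhere. The megakaryocyte list ran from 7.41 to 10.46 and stood at 10.25 and 8.66, against 6.61 to 6.98 elsewhere. In all 4 lists no leukaemia array overlapped any array of selected B cells. Both-copy leukaemia replicate 1 was higher than replicate 2 in each of them and in 8 of the 10 genes, while Fn1 and Pecam1 were higher on replicate 2. Not every list split in this way. The fibrillar and associated collagen list ran from 6.74 to 7.35 in het leukaemias and from 7.07 to 7.10 in both-copy precursors. The osteoblast, smooth muscle and pericyte, matrix receptor, neutrophil and erythroid lists also overlapped between leukaemias and selected B cells.

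**Figure D5:**
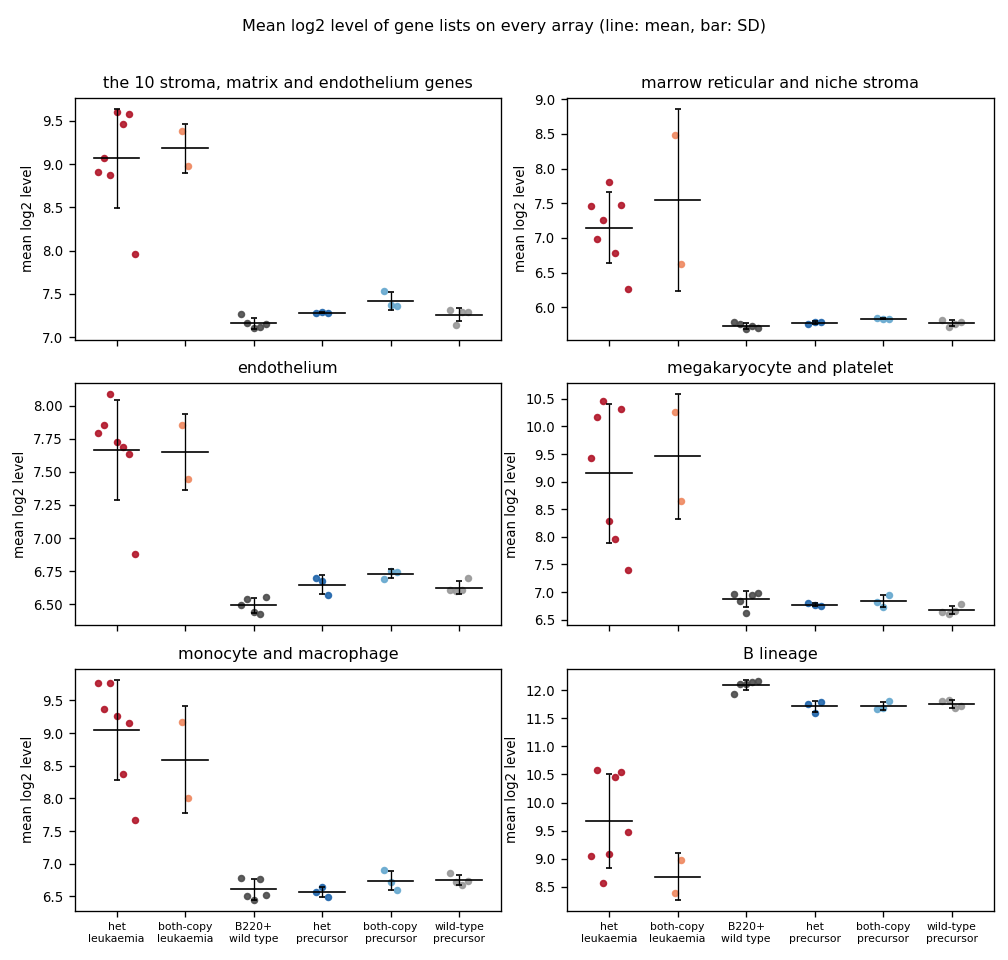
Mean log2 level of the 10 genes and of 5 marker lists (1 panel each, y axis in log2 units, scaled per panel) on each of the 24 arrays (points), by group on the x axis, with a line at the group mean and a bar of 1 SD. The leukaemia arrays sit above the selected B cell groups in the niche stroma, endothelial, macrophage and megakaryocyte lists and below them in the B lineage list.

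In both-copy leukaemias against B220+ cells, endothelial genes were higher in 17 of 27 and lower in 1 (median 1.30), niche stroma genes higher in 10 of 15 (median 1.76), and collagen-making enzymes higher in 5 of 16 (median 0.68), beside 9.48% of all genes higher. Neutrophil genes were higher in 10 of 15 (median 3.43). Between the leukaemia groups, where 1.87% of all genes were called, 8 of the 15 neutrophil genes were lower in het leukaemias. Of the basement membrane list 1 of 13 genes was higher there, Lamc1, encoding a laminin chain, by 0.87 ± 0.16 (adjusted p = 0.0128). Of the proteases and inhibitors 1 of 17 was lower, the protease inhibitor gene Reck, which fell by 0.61 ± 0.10 (adjusted p = 0.0089). Both were named after their values were seen. No gene of the niche stroma, endothelial, proteoglycan or collagen-making lists passed in limma (2, 1, 2 and 1 at an unadjusted p under 0.05), which does not show that these lists were alike in the leukaemia groups. In both-copy precursors against WT precursors 6 of 11 fibrillar and associated collagens and 6 of 13 basement membrane genes rose, with medians of 0.29 and 0.21, beside 11.6% of all genes higher. Endothelial genes rose in 7 of 27 and fell in 1.

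The genes whose pattern over all 24 arrays was closest to each of the 9 called genes were found by the root mean square (RMS) difference of log2 values after centring each gene. Sparc and Bgn were each among the 2 nearest of the other, at an RMS of 0.258, against a spread of 2.31 for Sparc itself. Igfbp7, which encodes a secreted binding protein of vessels and matrix, was next to Sparc (0.367), and Serping1, encoding the C1 inhibitor of complement, was nearest to Bgn (0.226). Col1a1 and Col1a2 were nearest to each other (0.268), followed by Mme, encoding the surface peptidase CD10 (0.343 from Col1a1), and the semaphorin and growth factor co-receptor gene Nrp2 (0.377 from Col1a2). Atp6v0d2, a proton pump subunit of osteoclasts and macrophages, was nearest to Dcn (0.314), followed by Gpx3 (0.450), which encodes a secreted glutathione peroxidase. The nearest to Cdh5 were Vdr (0.280), the vitamin D receptor gene, and Esam (0.287), an adhesion molecule of endothelium and platelets. The nearest to Col4a1 were Nr2f2 and Ptprk (both 0.115, against a spread of 0.325), and to Fn1 Tnfrsf21 (0.612) and Ptafr (0.616), against a spread of 1.02. The nearest to Pecam1 were Maml2 (0.176) and Proser1 (0.217). All but Maml2 of these genes passed the test in het leukaemias against B220+ cells, where 31.8% of all genes did. Proser1 fell, as Pecam1 did, and the others that passed rose. They were picked for likeness to called genes over the same arrays. Their passing therefore follows largely from that choice and is a description alone.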

How the data were processed

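RNA was extracted with Trizol and hybridised to Affymetrix mouse gene arrays. The values are the log2 levels per probe set of the table deposited by the authors. It was made with the oligo package for R by RMA, which subtracts background, equalises array distributions and combines probes; this comes from the submitters' processing notes, and no versions are given in the sources used here. It is unknown whether the 24 arrays were normalized as 1 set. Scanner output was not analysed here, so no probe set has a detection call. Precision is limited by how many arrays each group holds.

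The 35556 probe sets held values from 3.80 to 14.31. By the platform annotation 21789 carried 1 gene symbol and were kept, while 1621 with several and 12146 with none were left out. Of those kept, 21698 matched RefSeq gene identifiers of GRCm38.p6, used for symbols, positions and promoters. Each of 19938 genes was read by its probe set of highest mean over the 24 arrays, and each of the 10 genes had 1. Array correlations lay between 0.906 and 0.995, and 0 pairs were identical.

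Groups follow the sample titles, which call replicates biological. Nothing further says how cultures or animals were kept apart, so p-values measure the spread between these samples. Log2 values were compared with limma 3.58.1 in R 4.3.3 (two-sided, Benjamini-Hochberg over all genes, threshold 0.05). The 14 leukaemia and B220+ arrays shared 1 fit, the 10 precursor arrays another, and comparisons between stages used all 24. Each fit took 1 spread per gene over all its groups, although the groups could differ in spread. For Bgn the SD was 1.32 in the 2 both-copy leukaemias and 0.07 in B220+ cells. Standard errors and p-values therefore do not give the spread of 1 group alone. The fits were tested on simulated data with 1 spread per gene in all groups, so unequal spread was not tested. False calls were 9 of 164 for het leukaemias against B220+ cells and 12 of 138 for both-copy leukaemias against them. For het against WT precursors they were 7 of 176. In the both-copy leukaemia comparison, added changes of 0.5, 1 and 2 log2 units were recovered in 31.3%, 68.7% and 89.4% of genes. Correlations used exact permutations of 7 arrays (5040 orders). Alternatives were other scalings, array weights, spread following intensity, a dim filter, mean of probe sets, Xist as covariate, replicate number as block, other fits or controls, and leaving out each array. Same-numbered het and both-copy precursors deviated together in all 3 pairs (correlations 0.208 to 0.250, limit 0.1), a pairing seen in the data and not in the labels, and the block changed no call there. Same-numbered both-copy leukaemias and both-copy precursors also lay above the limit (0.167 and 0.183). With 2 leukaemias, these deviate in opposite directions by construction, and the labels name no pairing. In every other combination of groups at least 1 same-numbered pair lay below the limit.

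The 10 genes, the 18 lists and the tests were chosen with earlier results of these data known. Named genes are the 10, Pax5, Xist, up to 3 called genes of each list with the smallest adjusted p in het leukaemias against B220+ cells (1 by p where none passed), and the 2 genes nearest to each called gene.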

Additional observations from a re-analysis of the deposited data

Results flagged for a closer look

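In 2 sets of values the lowest het leukaemia stood apart from the other 6 by Dixon's criterion. For Sparc, replicate 7 was at 9.65 and the next array at 11.19. For Bgn it was at 8.89 and the next at 10.54. Of 30 combinations of gene and group examined, 2 stood out in this way. Chance alone gives about 1 in 20, so this count is near what chance gives. Both values came from the same array, so they are not independent.

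The difference between oncogene-bearing and WT cells changed between the precursor and leukaemia stages in 7 genes of the het groups, by the test of the difference itself (limma): Sparc by 4.91, Bgn by 4.55, Dcn by 2.60, Cdh5 by 2.17, Col1a2 by 1.93, Col4a1 by 0.66 and Pecam1 by -1.16. In the both-copy groups it changed in 6 genes: Sparc by 4.48, Bgn by 4.01, Dcn by 3.58, Cdh5 by 2.17, Col1a2 by 1.91 and Pecam1 by -1.10. The part of the different cell selections at the 2 stages was not tested.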

How the results depend on the processing

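Sparc, Bgn, Dcn and Cdh5 kept their direction and their call in het leukaemias against B220+ cells under every alternative run, with Sparc between 4.70 and 5.19, Bgn between 4.59 and 5.03, Dcn between 2.45 and 2.93 and Cdh5 between 1.53 and 1.99. No called change of the 10 genes turned sign under any alternative in the 12 comparisons. Recomputed under the alternatives, the 50 called changes kept their call in 903 values and lost it in 147. The 70 uncalled changes passed in 24 values, and 27 of them turned sign at least once without passing.

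Leaving out 1 array at a time moved the number of the 10 genes called from 9 to between 6 and 9 in het leukaemias against B220+ cells, from 7 to between 4 and 6 in both-copy leukaemias against B220+ cells, from 0 to between 0 and 1 between the leukaemias, and from 5 to between 2 and 4 in both-copy against WT precursors. It gave 7 to 9 in het and 5 to 7 in both-copy leukaemias against their own precursors, and 6 to 7 and 4 to 6 in the stage differences of the het and both-copy groups. With array weights 3 genes passed in het against WT precursors (0 as fitted) and 4 in both-copy leukaemias against both-copy precursors (7 as fitted). With Xist as a covariate 1 gene passed in het against WT precursors, and 0 in both-copy against WT precursors (5 as fitted). All 24 arrays in 1 fit also left 0 in both-copy against WT precursors. That fit keeps the changes and alters only the estimated spread. Leaving out arrays leaves fewer samples, and the cause of the other shifts was not tested. The counts under alternatives, here and with the block below, stand without the share of all genes called under the same setting. They therefore cannot be read as particular to the 10 genes.

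With the replicate number as a block, 0 genes passed in both-copy leukaemias against B220+ cells and 0 in both-copy leukaemias against both-copy precursors (7 as fitted in each), where only 2 numbers are shared, and 2 passed in both-copy against WT precursors. The labels name no pairing of these groups, though same-numbered both-copy leukaemias and both-copy precursors deviated together (correlations 0.167 and 0.183, limit 0.1). Scaling changed the balance of higher and lower calls over all genes. Called genes in het leukaemias against B220+ cells were 40.5% higher as fitted, 35.5% after quantile normalization, 16.4% after median centring and 54.1% after cyclic loess, and the median change of all genes moved from -0.06 to -0.20 with median centring. Under these 3 scalings 138 of 150 called results of the 10 genes passed and 0 turned sign.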
